A study of Macaca mulatta with 17 samples.

Results

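The posterior HOXA genes HOXA9, HOXA10, HOXA11 and HOXA13 were followed in 17 fetal uteri of the rhesus macaque (Macaca mulatta). These 4 genes were taken by name from an Agilent array that carries 20217 probes, of which 18027 could be given one of 16551 gene names, and each of the 4 genes had 1 probe, so that no choice among probes was needed. The probe of HOXA13 is described in the array annotation only as similar to homeobox A13, under a locus name whose gene ID is that of HOXA13 in the RefSeq table. The other 3 genes were found by symbol.

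All fetuses were female. Pregnant dams were given a daily fruit treat with deuterated bisphenol A (BPA, an industrial chemical with estrogenic activity) at 400 µg/kg/day, or with the ethanol vehicle alone. The GD100 groups were dosed from gestational day 50 and delivered by caesarean section on day 100; they held 5 control and 5 BPA uteri. The GD165 groups were dosed from day 100 and delivered vaginally on days 165 to 168; they held 4 control uteri, numbered 1, 3, 5 and 6, and 3 BPA uteri, numbered 3, 4 and 5, since stillborn fetuses were left out. Age, window of dosing and mode of delivery therefore cannot be told apart in any comparison of GD165 with GD100. Each array held the RNA of a single uterus, from the frozen sagittal side of an organ split lengthwise between fundus and cervix, so that endometrium, myometrium and cervical tissue were measured together.

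HOX genes encode homeodomain transcription factors that give cells their position along the body axis, and the genes nearest the 5′ end of a cluster are used most posteriorly. In the Müllerian duct, the embryonic tube that becomes the female tract, the posterior HOXA genes are used in overlapping zones: HOXA9 in the future oviduct, HOXA10 in the uterus, HOXA11 in the lower uterus and cervix, and HOXA13 in the cervix and upper vagina. Loss of Hoxa10 in mice shifts the upper uterus toward an oviduct-like form, and mutations of HOXA13 in people cause hand-foot-genital syndrome, in which the uterus can be malformed.

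The values below are those of short oligonucleotides on the array, and the first 30 bases of each 60-base probe are shown so that each gene's measurement can be identified:
HOXA9: atagttacctcaaggcctactgaccaaatt
HOXA10: ttggaattagtggattttttgtcattaaaa
HOXA11: atgtatgcttcatacagggatggtgttcaa
HOXA13: aacgggagagaaaactcttctgaggatcat
The longest run of bases that any of these 4 probes shared with any other probe of the array, on either strand, was 14 to 15 bases. The array annotation places all 4 probes on the minus strand of chromosome 7, whereas the RefSeq table for assembly T2T-MMU8v2.0 has the 4 genes on chromosome 3 of the macaque; since the build behind the annotated positions was not settled, no positions are given. In that table EVX1, HOXA13, HOXA11, HOXA10, HOXA9 and HOXA7 follow each other along the chromosome in this order, with 1 locus named only by a number between HOXA13 and HOXA11. The interval annotated for the HOXA10 probe covers 40 bases, and those of the other 3 genes cover 60 or 61.

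All 4 genes were well above background on all 17 arrays, and their 2 spots on an array agreed closely: the median difference between the spots was 0.08 on the log2 scale for HOXA9, 0.03 for HOXA10, 0.03 for HOXA11 and 0.02 for HOXA13. Levels are given as log2 intensity, scaled so that every array has the same 75th percentile, 12.62. A level of 1 probe cannot be set against that of another, since probes differ in brightness, so only differences between arrays are compared. Arrays had 83.8 to 89.0% of their spots well above background. Precision is limited by how few arrays each group holds and by the spread between animals, which differed between the genes. Of 8 markers of Müllerian tissue, 7 were well above background throughout; PGR, the progesterone receptor, was so on 0 of 17 arrays. All 9 smooth muscle markers were well above background on every array. Nothing in the labels ties uteri to shared litters or cultures, and each was taken as 1 replicate.

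HOXA9 and HOXA10 were both lower in older control uteri, by about the same amount, whereas HOXA11 and HOXA13 did not pass the test. HOXA9 on the 5 GD100 control arrays was 14.64, 14.52, 14.73, 14.54 and 14.85, a mean level of 14.66 ± 0.14 (SD, n = 5). On the 4 GD165 control arrays it was 14.35, 14.30, 14.23 and 14.07, with a mean of 14.24 ± 0.12 (SD, n = 4). Every GD165 control lay below every GD100 control, and the 2 groups were 0.17 apart at their closest.

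HOXA10 was steadier still. The GD100 controls had levels of 12.55, 12.52, 12.57, 12.59 and 12.49, a mean of 12.54 ± 0.04 (SD, n = 5), and the GD165 controls had 12.22, 12.20, 12.10 and 12.00, a mean of 12.13 ± 0.10 (SD, n = 4). Again the groups did not overlap. In limma's fit to all 17 arrays HOXA9 fell by 0.42 on the log2 scale (SE 0.10, adjusted p 0.00851), a 1.34-fold difference, and HOXA10 fell by 0.42 (SE 0.07, adjusted p 8.6e-04), also 1.34-fold.

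So 2 of 4 members passed, both lower, where 11.5% of all probes passed an adjusted p of 0.01 for age in controls, 6.32% higher and 5.2% lower. The same 2 of 4 had control groups that did not overlap, beside 19.4% of probes, and an unadjusted p under 0.05, beside 33.1%. With the scanner's own error model in place of the spread between animals, 3 of 4 were called, HOXA13 being the third, beside 47.8% of probes. An exact permutation test of each gene gave p = 0.00794 for HOXA9 and for HOXA10, the smallest that 4 arrays against 5 can give, or 0.0159 adjusted over the 4 genes. Both genes were also lower at GD165 on the pair of slides that held 1 control of each age, HOXA9 by -0.43 and -0.50 and HOXA10 by -0.38 and -0.27. With slide as a fixed block the adjusted p was 0.0112 for HOXA9 and 0.0236 for HOXA10, and without scaling it was 0.0546 and 0.0129. HOXA9 also missed the threshold when only the compared groups were fitted (adjusted p 0.0239) and without any of 13 of the 17 arrays (0.0102 to 0.0349, the last without GD165 control replicate 6); it passed without GD100 control replicate 2 or any of the 3 GD165 BPA arrays.

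HOXA11 had levels of 15.18, 14.98, 15.38, 15.03 and 15.27 in GD100 controls (mean 15.17 ± 0.17, SD, n = 5). The GD165 controls had 15.12, 15.06, 15.01 and 14.75 (mean 14.99 ± 0.16, SD, n = 4). The groups overlapped, and the difference of -0.18 (95% confidence interval -0.45 to 0.08) had an adjusted p of 0.337 in limma. HOXA13 had levels of 11.24, 11.67, 10.51, 12.00 and 11.75 in GD100 controls (mean 11.44 ± 0.58, SD, n = 5). The GD165 controls had 11.03, 11.39, 10.92 and 9.78 (mean 10.78 ± 0.70, SD, n = 4). These groups overlapped too, and the difference of -0.66 (95% confidence interval -1.89 to 0.58, limma adjusted p 0.477) was no larger than the spread between animals. With the slide as a block it was -0.32, and the within-slide differences had opposite signs, 0.87 and -0.73. Without GD165 control replicate 6 the difference was -0.33 for HOXA13 and -0.11 for HOXA11.

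**Figure D1:**
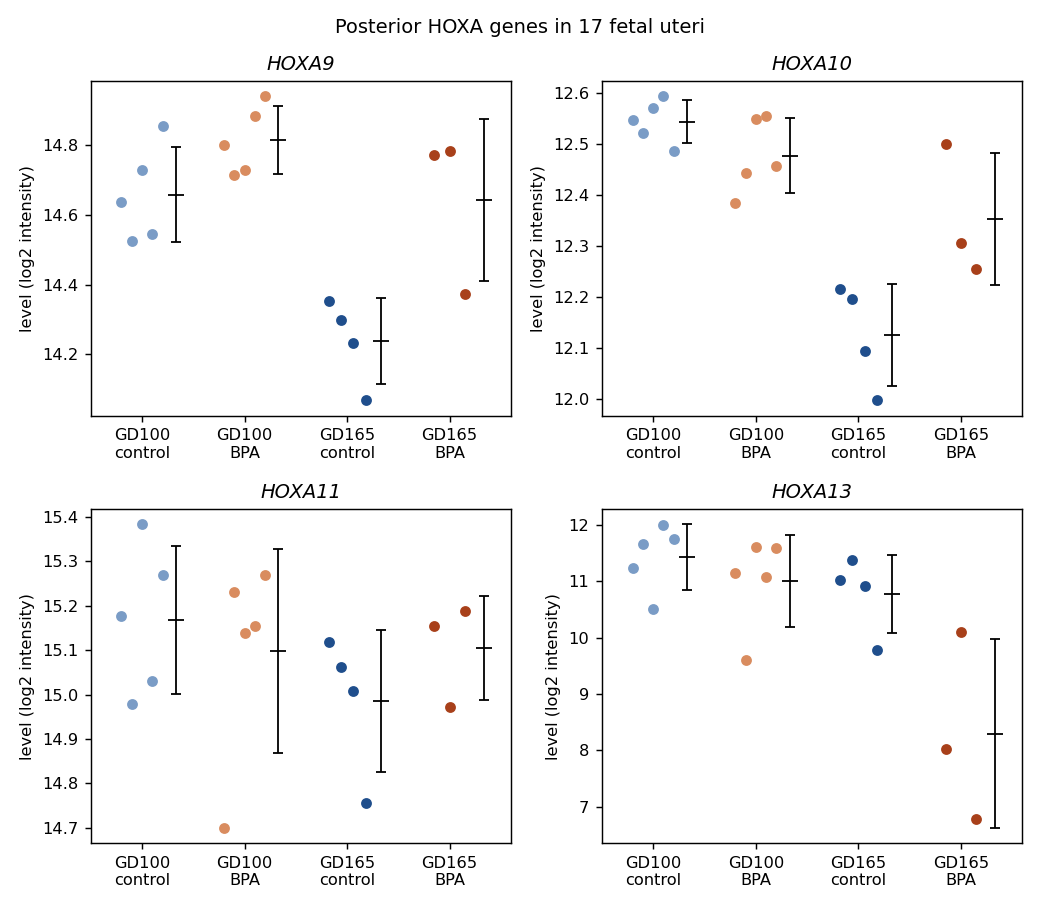
Level of each gene (log2 intensity, y axis, a separate scale for each gene) on each of 17 arrays by group; points are arrays and the black bars are the group mean ± SD. HOXA9 and HOXA10 of all 4 GD165 controls lie below both GD100 groups and below the GD165 BPA group, and HOXA13 spreads most in the 3 GD165 BPA uteri, from 6.77 to 10.10.

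Other markers moved with age as well. The 9 skeletal muscle genes were all higher in GD165 controls, 4 of them past the threshold, with a median log2 difference of 4.35, and their mean score, in which a gene's average over all arrays is 0, ran from -1.78 to -1.12 in GD100 controls from 0.35 to 4.46 in GD165 controls and from -0.38 to 4.03 in GD165 BPA uteri. CKM and MYL1, markers of mature muscle fibers, were well above background on 0 of 5 GD100 control arrays and on 4 of 4 GD165 control arrays. Of 6 columnar epithelium genes, 4 rose past the threshold, and of 9 smooth muscle genes 3 did, where 6.32% of all probes rose past it. What part these play in the lower HOXA9 and HOXA10 was not tested, and in whole tissue fewer cells of a type and less RNA per cell cannot be told apart.

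None of the 4 genes passed the test for BPA at GD100. HOXA9 of the 5 GD100 BPA arrays was 14.80, 14.72, 14.73, 14.88 and 14.94, or 14.81 ± 0.10 (SD, n = 5). HOXA10 was 12.38, 12.44, 12.55, 12.55 and 12.46, or 12.48 ± 0.07 (SD, n = 5). Both overlapped their controls.

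HOXA11 was 14.70, 15.23, 15.14, 15.16 and 15.27, or 15.10 ± 0.23 (SD, n = 5), and HOXA13 was 11.16, 9.61, 11.61, 11.08 and 11.60, or 11.01 ± 0.82 (SD, n = 5). Replicate 1 was low for HOXA11 and replicate 2 for HOXA13, and the other arrays lay within the range of the controls. By limma the differences were 0.16 (95% confidence interval -0.05 to 0.36) for HOXA9, -0.07 (-0.21 to 0.08) for HOXA10, -0.07 (-0.32 to 0.18) for HOXA11 and -0.42 (-1.59 to 0.74) for HOXA13.

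By limma's adjusted p, 0 of 4 were called, where 0% of all probes were, and 0 of 4 had an unadjusted p under 0.05, where 3.79% of probes did. Groups that did not overlap were seen in 0 of 4, beside 0.782% of probes. When the scanner's own error model was used without the spread between animals, 1 of 4 was called, HOXA13, beside 16.6% of probes. The intervals leave room for a change of HOXA13 in either direction: with the slide as a block the difference was 0.24, and without replicate 2 of the BPA group it was -0.07.

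At GD165 the members parted. In BPA uteri HOXA9 and HOXA10 stood above the controls of the same age, HOXA11 overlapped them, and HOXA13 had a lower mean but a wide spread. By limma's adjusted p, 0 of 4 differences were called. HOXA9 of the 3 GD165 BPA arrays was 14.77, 14.78 and 14.37, a mean of 14.64 ± 0.23 (SD, n = 3), against 14.24 in controls. HOXA10 was 12.50, 12.31 and 12.26, a mean of 12.35 ± 0.13 (SD, n = 3), against 12.13.

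All 3 BPA uteri were above all 4 controls for both genes, though for HOXA9 the lowest BPA array, replicate 5, was only just above the highest control. limma gave a difference of 0.41 for HOXA9 (SE 0.12, p 0.00333, adjusted p 0.407) and of 0.23 for HOXA10 (SE 0.08, p 0.0145, adjusted p 0.490). An exact permutation test gave p = 0.0286 for each, the smallest of 35 regroupings, and 0.0571 after adjustment over the 4 genes.

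HOXA11 of the BPA uteri was 15.15, 14.97 and 15.19, a mean of 15.10 ± 0.12 (SD, n = 3), and its difference from control was 0.12 (95% confidence interval -0.18 to 0.42, limma adjusted p 0.876). HOXA13 of the BPA uteri was 8.02, 10.10 and 6.77, a mean of 8.30 ± 1.68 (SD, n = 3), against 10.78 ± 0.70 (SD, n = 4) in controls. In unscaled intensity these 3 spots averaged 302, 1207 and 112, and the 4 controls 1987, 2405, 2039 and 905. Replicates 3 and 5 were below every control, and replicate 4, at 10.10, was above control replicate 6, at 9.78, so the groups overlapped.

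The HOXA13 difference was -2.48 (SE 0.66, 95% confidence interval -3.89 to -1.07, p 0.00189), a 5.58-fold lower geometric mean, with a limma adjusted p of 0.386. The exact permutation test gave p = 0.0571 and 0.0762 adjusted over the 4 genes. Without control replicate 6 the groups no longer overlapped and the difference was -2.81, but 3 arrays against 3 cannot give an exact p under 0.1. Without BPA replicate 5 it was -1.72, and without BPA replicate 4 it was -3.38 (limma adjusted p 0.144). On the slide that held 2 BPA arrays and 1 control of this age, the differences were 0.43 for HOXA9, 0.19 for HOXA10, -0.05 for HOXA11 and -1.97 for HOXA13.

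Of all probes, 0% passed the adjusted p in this comparison, 8.61% had an unadjusted p under 0.05 and 7.31% had groups that did not overlap. The members' counts were 0, 3 and 2 of 4. With the scanner's error model alone, which leaves out the spread between animals, 23.9% of probes were called, and 2 of 4 members, HOXA9 and HOXA13.

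**Figure D2:**
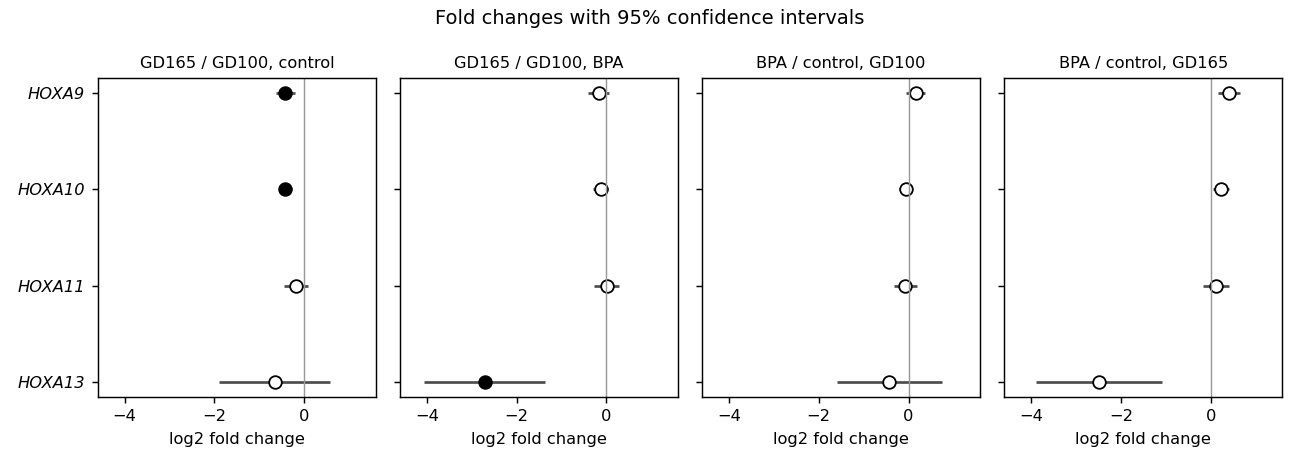
log2 fold change of each gene (x axis) in 4 comparisons, with its 95% confidence interval from limma as a line; filled points have an adjusted p under 0.01. The intervals of HOXA13 are several times as wide as those of the other genes, and only 3 points are filled: HOXA9 and HOXA10 with age in controls, HOXA13 with age in BPA uteri.

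Markers of other tissue of the lower tract were uneven over these same arrays. Of 12 listed genes of the squamous epithelium of cervix and vagina 11 were matched, and 10 of the 11 were lower in BPA uteri at GD165, with a median log2 difference of -1.27. Of the 11, 0 passed the threshold and 5 had an unadjusted limma p under 0.05, beside 8.61% of all probes. Their mean score was -0.74, -0.13, 0.65 and 3.30 in GD165 control replicates 1, 3, 5 and 6, and -0.57, -0.79 and -0.09 in BPA replicates 3, 4 and 5. The control with the highest squamous score, replicate 6, had the lowest HOXA13 of its group, and the BPA uterus with the lowest score, replicate 4, had the highest of its own. Control replicate 1, with the lowest score of its group, had HOXA13 at 11.03, below replicate 3 at 11.39. Between the groups, the BPA uteri had both the lower mean HOXA13 and the lower median score (-0.57, against 0.26 in controls). The markers KRT5 and KRT14, keratins of basal squamous cells, were well above background on every array of both groups, whereas the desmosomal gene DSG3 and the cornification gene SPRR3 were so on 1 of 4 control arrays and 0 of 3 BPA arrays. Of 6 columnar epithelium genes, 5 were lower in BPA uteri (median -0.50, with 0 past the threshold), and their scores were 0.43 to 0.79 in controls and -0.01 to 0.50 in BPA uteri. All 9 smooth muscle genes were lower too (median -0.17, with 0 past the threshold), with scores of 0.07 to 0.63 and -0.04 to 0.57. Of 8 genes of Müllerian tissue, 6 were higher in BPA uteri at GD165 (median 0.18, beside -0.02 over all probes), with 0 past the threshold. At an unadjusted limma p under 0.05 were 2 of the 8, WNT4 and WNT5A, beside 8.61% of all probes. Scores of the 8 genes were 0.14 to 0.27 in BPA uteri and -0.12 to 0.16 in controls of that age. With age in controls 2 of the 8 rose and 2 fell past the threshold (median -0.11), where 6.32% of all probes rose and 5.2% fell. Only 7 of the 8 gave a clear signal. The remaining gene is PGR, whose values near background enter these counts, medians and scores. The part of these tissues in the values of HOXA9, HOXA10 and HOXA13 was not tested.

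Since the scaling between arrays cancels in a difference within an array, HOXA13 was also set against the mean of the other 3 on the same array. Tissue sampling need not cancel in this difference, since the genes are used in zones of the tract that overlap only in part. This difference was -2.69 ± 0.65 (SD, n = 5) in GD100 controls, -3.12 ± 0.81 (SD, n = 5) in GD100 BPA uteri and -3.01 ± 0.58 (SD, n = 4) in GD165 controls. In the 3 GD165 BPA uteri it was -6.12, -3.92 and -7.16, or -5.74 ± 1.65 (SD, n = 3). On this measure the BPA and control groups at GD165 did not overlap, but by a small margin, since the highest BPA value was -3.92 and the lowest control value -3.83. HOXA13 alone overlapped between these groups. The subtracted HOXA9 and HOXA10 were higher in BPA uteri, by 0.41 and 0.23, so the measure also carries the differences of those genes.

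The effect of BPA at GD165 on this difference was -2.73 (exact permutation test, p = 0.0286, the smallest possible), and that of age in BPA uteri was -2.62 (exact p = 0.0357). Over the 4 comparisons made, the adjusted values were both 0.0714. This adjustment does not cover the choice of HOXA13 among the 4 genes, and earlier results of these data were known. With age in controls the difference was -0.32 (exact p = 0.444) and with BPA at GD100 -0.43 (exact p = 0.413). Leaving out 1 array of the GD165 groups gave -3.64 to -2.02 for BPA at GD165, in designs whose smallest p was 0.0667 or 0.1. For age in BPA uteri the exact p became 0.0857 without GD100 BPA replicate 1, 3, 4 or 5 and 0.0952 without GD165 BPA replicate 3 or 5, and the difference was -1.91 without GD165 BPA replicate 5.

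**Figure D3:**
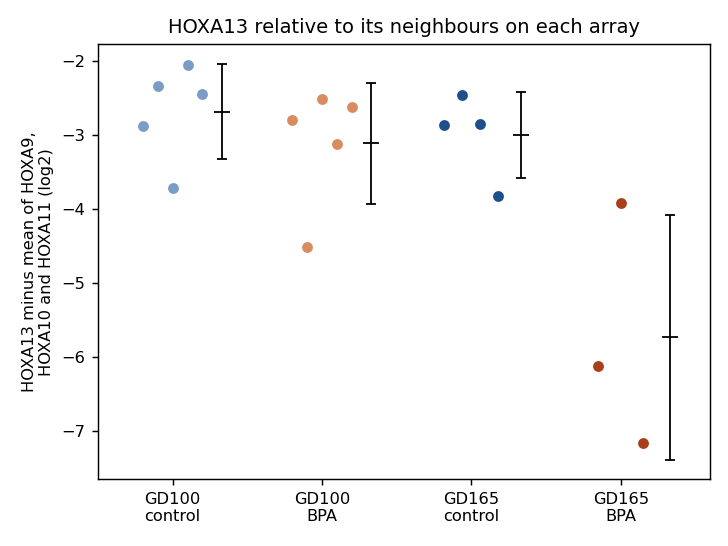
HOXA13 minus the mean of HOXA9, HOXA10 and HOXA11 on the same array (log2, y axis) by group; points are arrays and black bars the mean ± SD. The 3 GD165 BPA uteri, at -6.12, -3.92 and -7.16, lie below the 4 GD165 controls, the nearest of which is at -3.83; GD100 BPA replicate 2, at -4.52, lies lower than any control.

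The comparison of ages within BPA uteri shares its arrays with those above. HOXA13 fell by 2.72 on the log2 scale from GD100 to GD165 (SE 0.63, 6.57-fold, limma adjusted p 0.00741). This made 1 of 4 members, where 9.68% of all probes passed, 4.82% higher and 4.86% lower; 34.5% of probes had an unadjusted p under 0.05, again with 1 of 4 members. With the error model alone 1 of 4 was called, beside 50.8% of probes. Groups of HOXA13 overlapped, since GD100 BPA replicate 2, at 9.61, was below GD165 BPA replicate 4, at 10.10. The exact permutation test gave p = 0.0357, or 0.143 adjusted over the 4 genes. Without GD100 BPA replicate 1, 3, 4 or 5 the exact p was 0.0857, and without GD165 BPA replicate 3 or 5 it was 0.0952. HOXA9 (-0.17, adjusted p 0.296), HOXA10 (-0.12, adjusted p 0.283) and HOXA11 (0.01, adjusted p 0.982) did not pass limma's test, and without scaling HOXA9 and HOXA10 were at 0.01 and 0.06. Groups that did not overlap were seen in 0 of 4 members, beside 27.2% of probes.

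The HOXA13 call ended with the slide as a fixed block (-3.63, adjusted p 0.0159), without scaling (0.0128) and with only the compared groups fitted (0.0413). It also ended without GD100 control replicate 1 or 2, GD100 BPA replicate 1, 3, 4 or 5, or GD165 BPA replicate 3 or 5, at an adjusted p of 0.0101 to 0.0473, and the difference was -1.95 without GD165 BPA replicate 5.

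Whether BPA acted differently at the 2 ages was tested as an interaction in the same fit. It was 0.25 for HOXA9, 0.29 for HOXA10 (p 0.0148), 0.19 for HOXA11 and -2.06 for HOXA13 (p 0.0298), with limma adjusted p of 0.722, 0.545, 0.854 and 0.593. For HOXA13 it was -3.32 with the slide as a fixed block, -1.30 without GD165 BPA replicate 5 and -2.96 without GD165 BPA replicate 4. By adjusted p 0 of 4 were called, beside 0% of all probes, and 2 of 4 had an unadjusted p under 0.05, beside 7.83% of probes. With the error model alone HOXA13 was called, 1 of 4, beside 23.1% of probes.

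Ordered by mean level over the 4 groups, HOXA9 ran from GD100 BPA through GD100 control and GD165 BPA to GD165 control, and only the last step, 0.41 against a root mean square SD of 0.19, separated groups that did not overlap. HOXA10 ran from GD100 control through GD100 BPA and GD165 BPA to GD165 control, again with only the last step, 0.23 against 0.12, between groups that did not overlap. For HOXA11 the neighbours in the order differed by 0.01 to 0.11, within the spread between animals. For HOXA13 they differed by 0.42, 0.23 and 2.48, and all neighbours overlapped, the last pair with a root mean square SD of 1.28.

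The members differed widely in spread. The SD within groups, pooled over the 4 groups, was 0.08 for HOXA10, 0.14 for HOXA9, 0.18 for HOXA11 and 0.93 for HOXA13, where the median of the 16230 probes well above background on all arrays was 0.21. Only 4.24% of those probes had a smaller SD than HOXA10, whereas 98.5% had a smaller SD than HOXA13. The difference between the 2 spots of HOXA13 on an array was at most 0.07, well under its SD between arrays. No difference in spread between the ages passed the test. The mean absolute deviation from the group median was 0.72 at GD165 and 0.45 at GD100 for HOXA13 (exact permutation test, p = 0.406), and after adjustment over the 4 genes the exact p was 0.640 or more for all 4.

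Deviations from the group means were compared between members over the 17 arrays. Pearson's r was 0.54 for HOXA9 with HOXA13 (permutation p = 0.120; Spearman's rho 0.42, p = 0.172), 0.43 for HOXA10 with HOXA11 (p = 0.0940; rho 0.30, p = 0.249) and 0.41 for HOXA9 with HOXA10 (p = 0.239; rho 0.33, p = 0.299). It was 0.34 for HOXA9 with HOXA11 (permutation p = 0.172; rho 0.43, p = 0.0946), 0.26 for HOXA10 with HOXA13 (p = 0.544; rho 0.26, p = 0.440) and -0.22 for HOXA11 with HOXA13 (p = 0.393; rho -0.10, p = 0.718). Of the 6 pairs 0 passed, with r adjusted to a permutation p of 0.344 or more and rho to 0.448 or more. Without scaling the arrays, r for HOXA9 with HOXA10 was 0.79 (adjusted permutation p = 0.0163).

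Without the 2 arrays whose deviation of the first gene lay farthest from the median deviation, an alternative chosen after seeing the data, r was 0.39 for HOXA9 with HOXA13, 0.41 for HOXA10 with HOXA11, 0.44 for HOXA9 with HOXA10, 0.47 for HOXA9 with HOXA11, 0.35 for HOXA10 with HOXA13 and -0.50 for HOXA11 with HOXA13. When the 2 arrays were picked by the level of the first gene instead, r was 0.49, 0.33, 0.31, 0.25, 0.15 and -0.50 in the same order. The ages gave unlike values: HOXA9 with HOXA13 had r of 0.10 over the 10 GD100 arrays and of 0.82 over the 7 GD165 arrays, and HOXA9 with HOXA10 had -0.19 and 0.76. Whether the ages differed in these correlations was not tested.

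**Figure D4:**
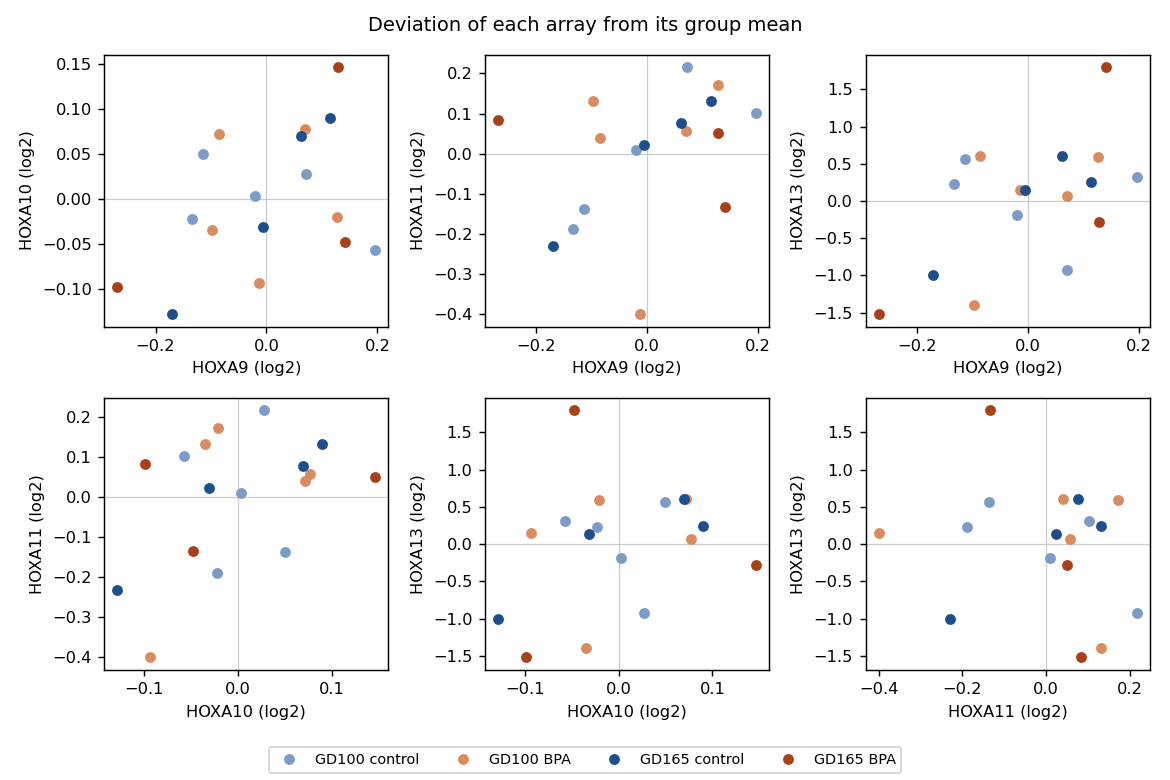
Deviation of each array from its group mean (log2) for the 6 pairs of genes; both axes are log2 differences, each point is an array and colors are the 4 groups. HOXA9 and HOXA13 spread along a common direction in the GD165 groups (r of 0.82 over 7 arrays) and not in the GD100 groups (0.10 over 10 arrays), and no pair passed the test over all 17.

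Among 13712 named genes well above background on all arrays, those whose deviations over the 17 arrays were most like each member were picked out as a description, with no test. They were LRPPRC (r 0.87), ZNF354A (0.86) and CCT7 (0.85) for HOXA9, and FEM1A (0.89), SEC61A1 (0.87) and MAPKAPK3 (0.84) for HOXA10. For HOXA11 they were UNC5D (0.90), SENP7 (0.88) and ADGRL2 (0.87), and for HOXA13 PROM1, a membrane glycoprotein of epithelial progenitor cells (0.88), MGC16028 (0.88) and PPAN (0.87). All are the highest of 13712 values. The members themselves were left out of the genes compared, so they could not appear, and no HOX gene outside them was among those listed.

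The rest of the cluster lies toward the 3′ end and is used more anteriorly in the embryo. Of the anterior genes HOXA2 to HOXA7 and EVX1, the neighbour beyond HOXA13, 0 of 7 passed limma's adjusted p in any of the 4 comparisons. An unadjusted p under 0.05 was seen in 0 of 7 for age in controls, beside 33.1% of probes, and for BPA at GD165, beside 8.61%. It was seen in 1 of 7 with BPA at GD100 (HOXA6), beside 3.79% of probes. With age in BPA uteri it was seen in 3 of 7 (HOXA3, HOXA6 and EVX1), beside 34.5% of probes. There the list median was -0.19 and limma's lowest adjusted p 0.0483. The median log2 difference over these 7 genes with age in controls was 0.16, beside 0.00 over all probes, and with BPA at GD165 it was -0.07, beside -0.02. EVX1, next to HOXA13, differed by -0.69 with BPA at GD165 (SE 0.35, limma p 0.0660, adjusted p 0.599).

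**Figure D5:**
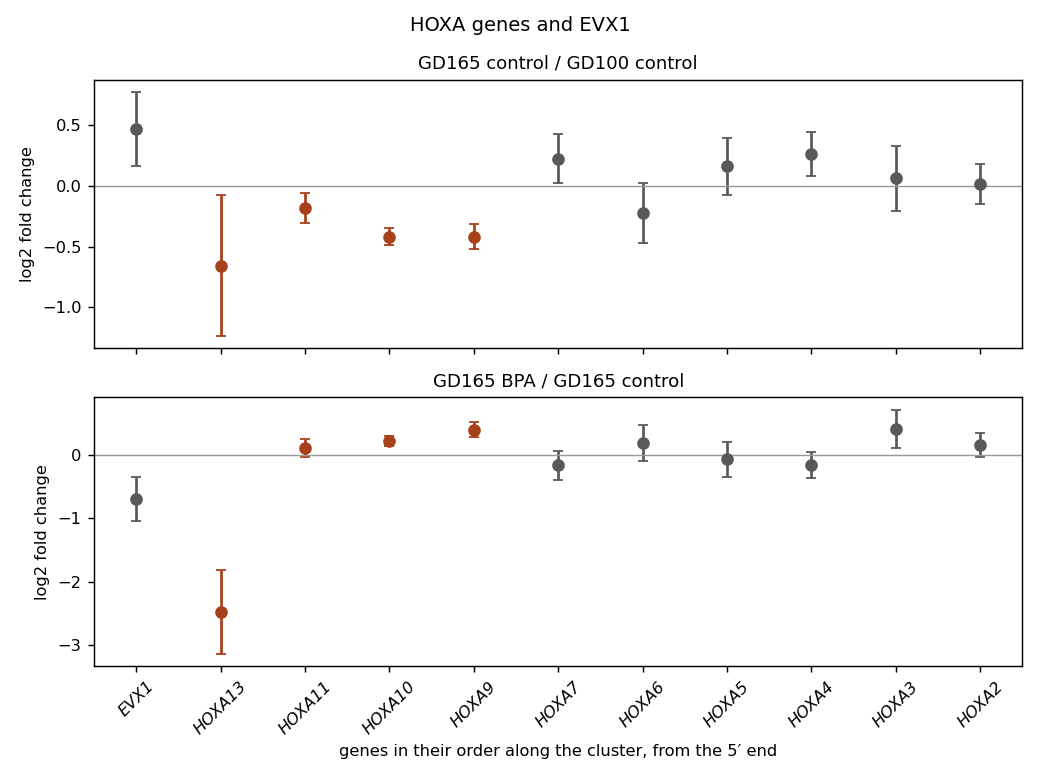
log2 fold change (y axis) of the HOXA genes and EVX1 in cluster order, with age in controls (top) and with BPA at GD165 (bottom); error bars are limma's SE and the posterior members are in red. HOXA10 and HOXA9 are at -0.42 in the top panel, and HOXA13 is at -2.48 in the bottom panel with its neighbours EVX1 at -0.69 and HOXA11 at 0.12.

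Of 12 posterior genes of the HOXB, HOXC and HOXD clusters, 0 passed in any comparison. HOXD13, the paralog of HOXA13 that acts with it in the genital tubercle and digits, had a mean level of 7.29 ± 0.75 (SD, n = 4) in the older controls against 5.75 ± 0.73 (SD, n = 3) in BPA uteri of that age, a difference of -1.54 (SE 0.44, limma p 0.00341, adjusted p 0.407). HOXC9, a paralog of HOXA9, differed by 1.45 (SE 0.74, limma p 0.0696, adjusted p 0.610). These were the lowest and the highest difference of the list at GD165. The list's median was 0.07, with 7 of 12 higher and 3 of 12 at an unadjusted p under 0.05, beside 8.61% of probes. On each GD165 array 9 of the 12 were well above background, so values near background enter these counts and the median. The mean of HOXD13 in BPA uteri, 5.75, was below the dimmest HOXA13 array, at 6.77.

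HOX proteins bind DNA together with cofactors of the TALE class, MEIS, PBX and PKNOX. Of 9 such genes, 7 were lower and 2 higher with age in controls, with a list median of -0.19. Past the adjusted p of 0.01, 3 fell and 0 rose, where 5.2% of all probes fell and 6.32% rose past it. PBX4 fell by 1.05 on the log2 scale (SE 0.17, adjusted p 4.86e-04), MEIS1 by 0.55 (SE 0.11, adjusted p 0.00261) and PBX3 by 0.48 (SE 0.10, adjusted p 0.00333). In BPA uteri, PBX4 also fell with age, by 0.99 (SE 0.18, adjusted p 0.00189), and it was the only cofactor called. With BPA at either age 0 of 9 passed, and with BPA at GD165 the 9 differences lay between -0.11 and 0.16.

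Hormones, retinoids and WNT signals are known to set the levels of posterior HOXA genes. Of 12 genes of their receptors, ligands and enzymes, PGR included, 6 were higher and 6 lower with age in controls. Past the adjusted p of 0.01, 2 rose and 1 fell, where 6.32% of all probes rose and 5.2% fell past it. ESR1, estrogen receptor alpha, rose by 0.73 (SE 0.16, adjusted p 0.00458), and VDR, the vitamin D receptor, rose by 1.25 (SE 0.24, adjusted p 0.00171). WNT5A, a ligand that takes part in uterine gland formation, fell by 0.55 (SE 0.13, adjusted p 0.00697). ESR1 also rose with age in BPA uteri, by 0.95 (SE 0.17, adjusted p 0.00174). With BPA at GD165 0 of 12 passed, and the lowest difference was -0.45, for VDR. PGR, the progesterone receptor, was not well above background in either group and is given no difference. WNT5A differed by 0.37 (SE 0.15, limma p 0.0254, adjusted p 0.528), and WNT4, a ligand needed for the Müllerian duct, by 0.66 (SE 0.21, limma p 0.00718, adjusted p 0.455).

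Of 9 genes named as targets of HOXA10 or its relatives, 5 were higher and 4 lower with age in controls. Past the adjusted p of 0.01, 2 rose and 1 fell, where 6.32% of all probes rose and 5.2% fell past it. The prostaglandin E receptors PTGER3 and PTGER4 rose by 1.82 (SE 0.42, adjusted p 0.00630) and 1.01 (SE 0.24, adjusted p 0.00715), and EPHA7, an ephrin receptor, fell by 0.99 (SE 0.16, adjusted p 5.33e-04). PTGER4 also rose with age in BPA uteri, by 1.08 (SE 0.26, adjusted p 0.00921). With BPA at either age 0 of 9 passed limma's test.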

How the data were processed

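Each uterus was hybridized to 1 array (Agilent, 1 color), and per the labels and methods the authors read the scans with Agilent Feature Extraction 9.5. The deposited values used here are linear intensities that the scanner software had corrected for background and trend but not scaled among arrays. The deposited series table held identical values (711467 of 711467, tolerance 0) and was not used further.

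Control and outlier spots were left out, log2 values were averaged over the 2 spots per probe, and arrays were brought to a common 75th percentile. limma 3.58.1 in R 4.3.3 was fitted to 17 arrays in 4 groups (two-sided, Benjamini-Hochberg over 20217 probes, threshold 0.01 after the study's methods, whose error-weighted test was not repeated). Exact permutation tests (two-sided) and correlations, with 100000 resamples within groups, were run in Python 3.11.15 with numpy 2.4.6, pandas 2.3.3 and scipy 1.17.1. The 6 slides served as batches. The fits and tests were tested on simulated data. The members and gene lists were chosen with earlier results of these data known (1 listed gene is not reported here); genes of the lists are named where they passed or were the lowest or highest, and for each member the 3 genes most like it. Other genes named from the lists (WNT4, WNT5A and EVX1 with BPA at GD165, HOXA3, HOXA6, and the tissue markers) were chosen after their values were seen. Alternatives were normexp background correction (offset 50), median, quantile or no scaling, a filter on dim probes (17149 kept), outlier spots kept, only the compared groups, other variance priors and weights, the error model only, a threshold of 0.05, each array left out, and the slide or the replicate number as a block.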

Additional observations from a re-analysis of the deposited data

Results flagged for a closer look

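Of 15 groups of 4 or 5 arrays tested for a stray value (the 4 genes and HOXA13 relative to the other 3 genes), 2 had an array far from the others, by the gap to the nearest array over the range of the group; chance flags about 1 group in 20. HOXA11 was 14.70 in GD100 BPA replicate 1, with the other 4 arrays of its group between 15.14 and 15.27; without it the difference with BPA at GD100 was 0.03 in place of -0.07. The same array had a germ cell score of 4.76 (others of its group -0.10 to 1.37), a skeletal muscle score of 0.59 (others -1.57 to -1.11) and a score of 0.82 for the posterior HOXB, HOXC and HOXD genes (others -0.26 to 0.34). Of the 12 genes behind this last score, 9 to 10 were well above background in GD100 BPA uteri, so values near background enter it. The part of these scores in the HOXA11 value of this array was not tested. HOXA13 was 9.61 in GD100 BPA replicate 2, with the other 4 between 11.08 and 11.61; without it the difference with BPA at GD100 was -0.07 and that with age in BPA uteri -3.07 (limma adjusted p 0.00385). The group of 3 GD165 BPA arrays was too small for this check.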

How the results depend on the processing

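Of the alternatives that kept all arrays, 412 values kept direction and side of the threshold, against 50 that did not, and with 1 array left out 587 did and 93 did not; the causes of the changes below were not tested. For age in controls, members called went from 2 to 0 without scaling, with slide as a fixed block and with a replicate block, and to 1 with only the compared groups; HOXA9 was then -0.44, -0.47, -0.39 and -0.42 (limma adjusted p 0.0546, 0.0112, 0.0737 and 0.0239) and HOXA10 -0.44, -0.39 and -0.37 (0.0129, 0.0236 and 0.0140) under the first 3. Probes called, 2328, became 1531, 1233, 958 and 1172. For age in BPA uteri the same 4 settings took members called from 1 to 0, with HOXA13 at -2.53, -3.63, -2.94 and -2.72 (adjusted p 0.0128, 0.0159, 0.0123 and 0.0413); probes called, 1956, became 512 with the slide block and 1176 with the compared groups. HOXA9 and HOXA10 turned to 0.011 and 0.058 there without scaling, and HOXA11 to -0.012 with normexp, -0.068 and -0.0098 with slide as a fixed or random block and -0.038 with the replicate block. HOXA13 with BPA at GD100 turned to 0.24 with slide as a fixed block, where 1 probe was called with the compared groups only. A threshold of 0.05 called 4279 and 4255 probes for age in controls and in BPA uteri. Without scaling, the difference in spread of HOXA9 between ages was -0.014 and its r with HOXA10 was 0.79.

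The error model alone, which leaves out the spread between animals, called 9654, 3363, 4831, 10267 and 4663 probes for age in controls, BPA at GD100, BPA at GD165, age in BPA uteri and the interaction; it called HOXA13 in all 5 (-0.66, -0.42, -2.48, -2.72 and -2.06) and HOXA9 with BPA at GD165 (0.41), so that members called were 1 at GD100, 2 at GD165 and 1 for the interaction.

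With 1 array left out, members called were 1 to 2 for age in controls, where HOXA9 was -0.46 to -0.36, and 0 to 1 for age in BPA uteri, where HOXA13 was -3.62 to -1.95 and HOXA11 -0.094 to 0.073. Probes called were 1512 to 2370 and 994 to 2131 for these ages, and 0 to 1 for BPA at GD100, BPA at GD165 and the interaction. HOXA11 with BPA at GD100 was -0.12 to 0.030. HOXA13 relative to the other 3 genes was -3.64 to -2.02 for BPA at GD165 and -3.53 to -1.91 for age in BPA uteri. In exact tests, an alternative chosen after seeing the data, HOXA9 was 0.12 to 0.21 with BPA at GD100, HOXA9 0.33 to 0.54 and HOXA10 0.15 to 0.28 with BPA at GD165, HOXA10 -0.20 to -0.075 and HOXA13 -3.62 to -1.95 with age in BPA uteri, each crossing 0.05 without at least 1 array (for HOXA13 6 of 8 arrays, at 0.0857 to 0.0952); at GD165 no such test with 1 array fewer could go below 0.0667.

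Deviations of same-numbered control and BPA arrays correlated at -0.16 to 0.11 in GD100 and at 0.02 and 0.03 in GD165. These few pairs showed no sign of a pairing by number, but arrays of unlike number were not set beside them, so a pairing was not tested. The replicate block above, which took probes called for age in controls to 958, rests on the number alone. Each member had 1 probe, so a mean over probes was not run, and the compared groups alone cannot give the interaction. Few arrays per group, 3 in GD165 BPA, limit all values; signals of the 4 members were well above background on all arrays.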

Other observations

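Other tissue markers gave these values beside the HOXA genes. With age in controls, 9 of 11 matched squamous genes were higher and 0 passed limma's adjusted p of 0.01. Of the 11, 4 had an unadjusted p under 0.05, beside 33.1% of probes. For ciliated epithelium 6 of 6 genes were higher with 1 past the threshold, and 4 of 4 urothelial genes were higher with 1 past it. Of all probes, 6.32% were higher past this threshold. The 3 matched germ cell genes, markers of ovarian tissue, were lower in GD165 controls with 0 past the threshold and 0 at an unadjusted p under 0.05. In GD100 uteri their mean score ran from -1.20 to 1.94 in controls and from -0.10 to 4.76 with BPA. Of these 3 genes, 0 to 3 were well above background on a GD100 control array and 0 to 1 on a GD165 control array. The range was 2 to 3 in GD100 BPA uteri and 0 to 3 in GD165 BPA uteri, so values near background enter these scores. With BPA at GD165, 8 of 9 skeletal muscle genes, 3 of 6 ciliated genes and 3 of 4 urothelial genes were lower, all 3 germ cell genes were higher, and 0 passed in any of these lists. The germ cell score was 1.62 in GD165 BPA replicate 5 and -1.65 and -1.49 in replicates 3 and 4, against -1.83 to -1.12 in controls of that age. Replicate 5 also had a skeletal muscle score of 4.03, against 0.21 and -0.38 in the others of its group and 0.35 to 4.46 in GD165 controls. Its HOXA13 was the lowest, at 6.77, where GD165 controls ran from 9.78 to 11.39. With BPA at GD100, 0 passed in any of the 8 marker lists. Their part in the HOXA values was not tested.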
